A study of Mus musculus with 16 samples.

Results

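The 10 genes described here lie on mouse chromosome 14 around Camk2g, the gene for the gamma form of Ca2+/calmodulin-dependent protein kinase II (CaMKII). They are 1700112E06Rik (now Lrmda), Rarb, Ube2e1, Ube2e2, Zmynd17 (now Mss51), Synpo2l, Vcl, Adk, Vdac2 and Kcnma1. They were taken by name from a table of 18873 entries, and they had been chosen by their position and by measured FPKM differences between VV and MM (WT) mice. Their genotype differences are therefore given as a description, without a test. The comparison of exercised with sedentary mice, averaged over genotypes, is not among those differences and was tested. The genes were, however, chosen with earlier results of these data known.

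A gene edited by homologous recombination carries its neighbours along. When a knock-in allele is bred on, the stretch of chromosome around it is inherited with it, and it shrinks only as crossovers accumulate. Where the stem cells and the breeding strain differ in sequence, genes in such a stretch can differ between knock-in and control littermates beyond the edited codons. The genes here also have their own roles in muscle, in adhesion (Vcl), at the Z-disc (Synpo2l), at mitochondria (Zmynd17, Vdac2), in purine metabolism (Adk), in ion conductance (Kcnma1), in retinoic acid signalling (Rarb) and in ubiquitin transfer (Ube2e1, Ube2e2).

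RNA from quadriceps of 16 male mice on a C57BL/6J background, aged 13 to 15 weeks, was sequenced, with 4 mice per group. The groups were exercised VV, sedentary VV, exercised MM (WT) and sedentary MM (WT). VV mice are homozygous for Camk2g alleles in which both regulatory methionines of CaMKIIγ are replaced by valines, and MM mice are their wild-type littermates. Exercised mice ran 350 m on a treadmill and their muscles were taken 3 h later, and food was withdrawn on the day of sampling. The knock-in was made in embryonic stem cells that were themselves of C57BL/6 origin, later crossed to C57BL/6J, and is present in every cell, and the effect of the valine codons and that of DNA linked to them cannot be told apart in these groups. The labels do not say what the number before the dash in a mouse's name stands for, nor whether mice sharing it are siblings.

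Values are FPKM, by definition fragment numbers scaled for transcript length and for the mapped total of the mouse, and summed to between 470634 and 513468 per mouse. No source read here says how that total was scaled. The 10519 entries with a mean of at least 1 FPKM were compared as log2(FPKM + 0.1), so that changes of low genes come out too small, and all 10 genes were among them. Skeletal muscle fibre markers summed to between 58508 and 79193 FPKM in the 16 mice. In whole muscle, fewer cells of a type and less RNA per cell cannot be told apart.

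Camk2g itself spans chr14:20734873-20794157 (GRCm38). Its level was 56.9, 56.7, 50.5 and 54.1 FPKM in exercised VV mice, against 61.5, 57.7, 63.0 and 59.1 FPKM in exercised MM mice. In sedentary mice it was 61.6, 57.3, 63.7 and 59.9 FPKM in VV, against 65.6, 70.7, 66.7 and 72.9 FPKM in MM. Every VV mouse was below every MM mouse within each state, with a log2 difference of -0.17 (SE 0.045) over the 16 mice. Of all tested genes 3.39% separated in this way in exercised and 1.9% in sedentary mice. In exercised mice the log2 difference of Camk2g was -0.15, where the median of all tested genes was -0.077. With median-ratio scaling it was -0.065 in exercised mice. Over all alternatives the difference over the 16 mice ranged from -0.18 to -0.11. Levels do not show the replaced codons, so they do not check the genotype labels.

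The gene with the widest gap between genotypes was 1700112E06Rik. It is now called Lrmda, for leucine-rich melanocyte differentiation associated, and its human counterpart is known from a form of albinism. It spans 1036.6 kb of the plus strand, chr14:22019504-23056093, and begins 1.225 Mb beyond the end of Camk2g. In RefSeq this span overlaps several genes for long non-coding RNAs and several pseudogenes. Of these only Gm10248 has values here, at 0 FPKM in all mice. Whether fragments from the others were counted for 1700112E06Rik is not known. RefSeq's promoter entry for Lrmda uses a start at base 22019712, 208 bases inside that span. The first 42 bases of the entry, those outside the span (chr14:22019462-22019503, GRCm38, plus strand), are printed because this is the gene that differs most, with CG dinucleotides in capitals.

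Lrmda: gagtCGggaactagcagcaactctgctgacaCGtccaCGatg

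The 250 bases before the start used hold 15 CG dinucleotides, against a median of 6 over 32851 RefSeq promoters, and 27.3% of promoters hold as many or more. The DNA sequence of the VV mice was not analysed here.

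In exercised VV mice 1700112E06Rik was at 0.325, 0.297, 0.403 and 0.250 FPKM, against 1.63, 0.895, 1.87 and 3.99 FPKM in exercised MM mice. In sedentary VV mice it was at 0.283, 0.255, 0.335 and 0.683 FPKM, against 2.34, 3.40, 2.95 and 1.46 FPKM in sedentary MM mice. All 8 VV mice were below all 8 MM mice, the highest VV value being 0.683 (mouse 2296-5) and the lowest MM value 0.895 (mouse 2161-9). In FPKM the 8 VV mice lay closer together than the 8 MM mice, except for mouse 2296-5. Their values were also lower, and relative to the mean the SD over 8 mice was of similar size in both genotypes.

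The mean of 1700112E06Rik was 0.354 ± 0.142 FPKM in VV and 2.32 ± 1.06 FPKM in MM mice (SD, n = 8 each), a ratio of means of 0.153. Its log2 difference was -2.33 (SE 0.26) over the 16 mice, -2.22 in exercised and -2.45 in sedentary mice. It was the largest in absolute size of the 10519 genes. The choice of the gene rested on this contrast, in which 0.00951% of tested genes passed an adjusted p of 0.05 by limma, and nothing is read from that share. With a pseudocount of 1 in place of 0.1 the log2 difference was -1.23.

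Values are given apart for mice that share a number, as part of the same description. Among exercised mice numbered 2161, the values were 0.325 and 0.297 FPKM in VV and 1.63 and 0.895 FPKM in MM. Among sedentary mice numbered 2074, they were 0.283 and 0.255 FPKM in the VV mice and 3.40 FPKM in the MM mouse.

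**Figure D1:**
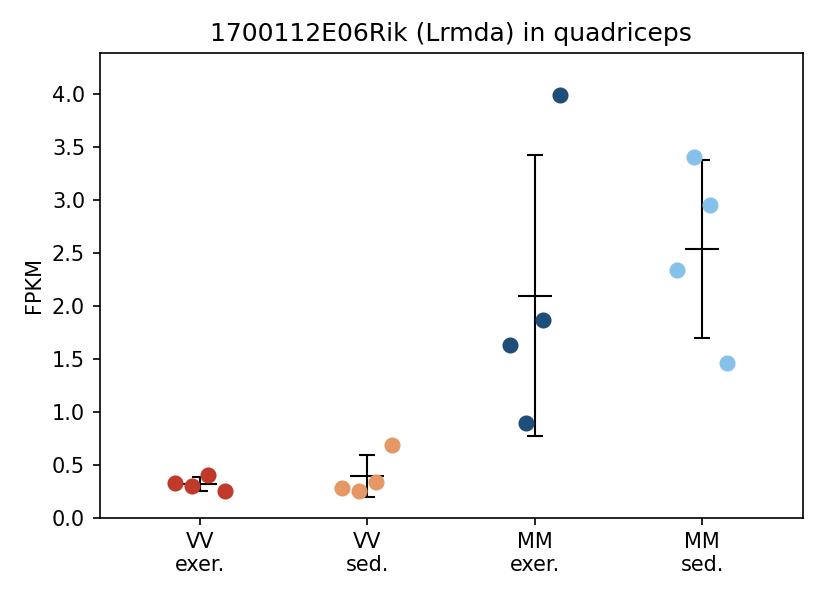
FPKM of 1700112E06Rik (Lrmda) in each mouse, with the group mean and SD as black lines, in exercised VV, sedentary VV, exercised MM and sedentary MM mice (n = 4 each). The 8 VV mice sit between 0.250 and 0.683 FPKM, below the 8 MM mice at 0.895 to 3.99 FPKM.

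Across all 10519 tested genes, 3, or 0.0285%, had VV and MM mice that did not overlap. Besides 1700112E06Rik, these were Sgk3, at 2.00 to 2.63 FPKM in VV and 2.72 to 4.66 FPKM in MM, and Sox18, at 2.59 to 4.04 FPKM in VV and 1.36 to 2.49 FPKM in MM. Sgk3 encodes a kinase related to Akt and Sox18 an endothelial transcription factor. Both were named after their values were seen.

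Because Lrmda is known from pigment cells, the melanocyte markers were read beside it. The 5 pigment genes Mlana, Tyr, Tyrp1, Dct and Pmel averaged at most 0.0452 FPKM, and Mlana was listed at 0 in 15 of 16 mice. The 7 listed genes, with Mitf and Sox10, summed to between 3.51 and 5.19 FPKM in VV mice (median 4.37) and between 4.16 and 5.72 FPKM in MM mice (median 4.59). Mitf, which muscle also expresses, averaged 3.78 FPKM and made up most of that sum. No tested marker of the 10 cell type lists passed the test for genotype. As only 0.00951% of all tested genes passed it, little can be read from this. Of the 7 melanocyte genes only Mitf was tested. Over all tested genes 65.4% were below 0 in VV minus MM. The 4 endothelial markers were all below 0 and summed to between 70.1 and 83.6 FPKM in VV and between 72.5 and 94.4 FPKM in MM mice. The 5 smooth muscle markers were all above 0. They summed to between 1207 and 1649 FPKM in VV and between 970 and 1502 FPKM in MM mice. Des averaged 1302 FPKM and made up most of that sum, the next highest being Acta2 at 37.0 FPKM. The sum therefore says little on the other smooth muscle markers. The 3 adipocyte markers were below 0, with a median sum of 23.4 FPKM in VV and 33.2 FPKM in MM mice. The 3 macrophage markers tested were below 0 too. Their median sum went the other way, at 8.80 FPKM in VV and 8.12 FPKM in MM mice, so no direction is read. The part of other cell types in the difference of 1700112E06Rik was not tested.

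By correlation of log2 levels within each genotype, the smaller of the VV and MM values being ranked, the genes most like 1700112E06Rik were Tram2, Coq7 and Usp37. Pearson's r was 0.66 in VV and 0.66 in MM for Tram2 (n = 8 mice each), 0.75 in VV and 0.63 in MM for Coq7, and 0.66 in VV and 0.62 in MM for Usp37. For Usp37 Spearman's rho was -0.07 in VV and 0.64 in MM. The values compared come from the same libraries, and these are the highest of many, given as a description.

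Rarb encodes retinoic acid receptor beta, a nuclear receptor that binds DNA with a retinoid X receptor. It lies 3.653 Mb before Camk2g, at chr14:16430839-17082331. In exercised VV mice Rarb was at 1.47, 1.98, 1.80 and 1.67 FPKM, against 2.55, 2.73, 1.94 and 2.53 FPKM in exercised MM mice. In sedentary mice it was at 2.81, 3.03, 2.52 and 1.63 FPKM in VV, against 3.57, 2.83, 3.03 and 2.98 FPKM in MM. The genotypes overlapped in both states, through mouse 2161-7 among exercised VV mice and mouse 2074-5 among sedentary VV mice. The log2 difference was -0.40 (SE 0.12) over the 16 mice, -0.47 in exercised and -0.33 in sedentary mice. Without mouse 2296-5 the sedentary difference was -0.15.

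Rarb is itself a known target of retinoic acid through an element near an internal start. The start used by RefSeq's promoter entry, base 16575476, is an internal start, 506.9 kb inside the span given above. That element, 2 copies of a half-site 5 bases apart, is shown in capitals in this stretch of the entry (chr14:16575506-16575535, GRCm38, minus strand, written 5′ to 3′ along the gene), because retinoic acid receptors bind it.

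Rarb: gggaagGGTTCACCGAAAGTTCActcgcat

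It lies at bases -53 to -37 from that internal start. The half-sites searched were AGTTCA and GGTTCA on both strands, and 12 of 32851 promoters, or 0.0365%, held such a pair in the 250 bases before the start. A match is a description of letters and says nothing on binding in these muscles.

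Ube2e1 and Ube2e2 encode closely related E2 enzymes that carry ubiquitin to its ligases. Ube2e2 lies 1.841 Mb before Camk2g (chr14:18573563-18894284). It was at 1.86, 2.28, 1.84 and 1.97 FPKM in exercised VV mice, against 2.72, 2.64, 3.66 and 3.15 FPKM in exercised MM mice, with no overlap. In all 10519 genes, 3.39% did not overlap between exercised VV and MM mice. In sedentary mice Ube2e2 was at 3.14, 2.49, 3.15 and 2.14 FPKM in VV, against 3.10, 3.36, 2.22 and 2.73 FPKM in MM, and the groups overlapped. Its log2 difference was -0.58 (SE 0.16) in exercised and -0.06 (SE 0.16) in sedentary mice, and the sedentary value was 0.04 without mouse 2296-5.

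Ube2e1 was the more abundant, at 47.5 ± 6.79 FPKM in VV and 53.9 ± 6.04 FPKM in MM mice (SD, n = 8 each). It lies 2.403 Mb before Camk2g (chr14:18282726-18332004) and its last bases overlap Nkiras1, which was at 11.8 FPKM in VV and 12.4 FPKM in MM on average. The genotypes overlapped in both states, and the log2 difference was -0.19 (SE 0.086).

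Zmynd17, now Mss51, was the only one of the 10 genes higher on average in VV than in MM mice on the log2 scale, though Vcl and Kcnma1 were near 0 and changed sign under some alternatives, from -0.02 to 0.05 for Vcl and from -0.10 to 0.02 for Kcnma1. It encodes a mitochondria-associated protein found mostly in skeletal muscle, whose yeast namesake activates translation of a respiratory chain subunit. It lies 0.238 Mb before Camk2g (chr14:20482857-20496901). In exercised VV mice it was at 28.7, 26.3, 28.8 and 44.0 FPKM, against 23.7, 27.0, 30.4 and 16.8 FPKM in exercised MM mice. In sedentary mice it was at 24.6, 40.0, 31.8 and 31.8 FPKM in VV, against 17.4, 30.8, 20.2 and 28.9 FPKM in MM. The genotypes overlapped in both states, and the log2 difference was 0.40 (SE 0.16), 0.39 in exercised and 0.42 in sedentary mice. Without exercised mouse 2296-3 or 2297-3 the exercised difference was 0.22, and without mouse 2032-3 the sedentary difference was 0.27.

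The other 5 genes differed less between genotypes. Synpo2l (chr14:20658945-20668354), which encodes an actin-binding protein of the Z-disc, averaged 30.7 ± 6.95 FPKM in VV and 33.4 ± 7.61 FPKM in MM mice. Adk (chr14:21052574-21448569), which encodes adenosine kinase, averaged 49.5 ± 7.81 FPKM in VV and 53.4 ± 5.83 FPKM in MM mice. Vdac2 (chr14:21831561-21845879), a channel of the outer mitochondrial membrane, averaged 163 ± 14.4 FPKM in VV and 180 ± 19.6 FPKM in MM mice. These are means over 8 mice per genotype with SD, and in each gene VV and MM mice overlapped.

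Kcnma1 (chr14:23292288-24005110), the pore subunit of the large-conductance calcium-activated potassium channel, averaged 7.70 ± 1.57 FPKM in VV and 7.91 ± 1.38 FPKM in MM mice. Vcl (chr14:20929383-21033676), which encodes vinculin, a link between adhesion sites and actin, averaged 25.6 ± 1.99 FPKM in VV and 25.6 ± 2.04 FPKM in MM mice. The log2 differences were -0.12 for Synpo2l, -0.12 for Adk, -0.15 for Vdac2 and -0.04 for Kcnma1, and below 0.01 in size for Vcl. With median-ratio scaling they were -0.06 for Synpo2l, -0.06 for Adk and -0.09 for Vdac2, and over all alternatives Synpo2l ranged from -0.21 to -0.06. Vcl overlaps Ap3m1 and Vdac2 overlaps Comtd1 at their ends, and no source read here says whether fragments were assigned by strand.

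**Figure D2:**
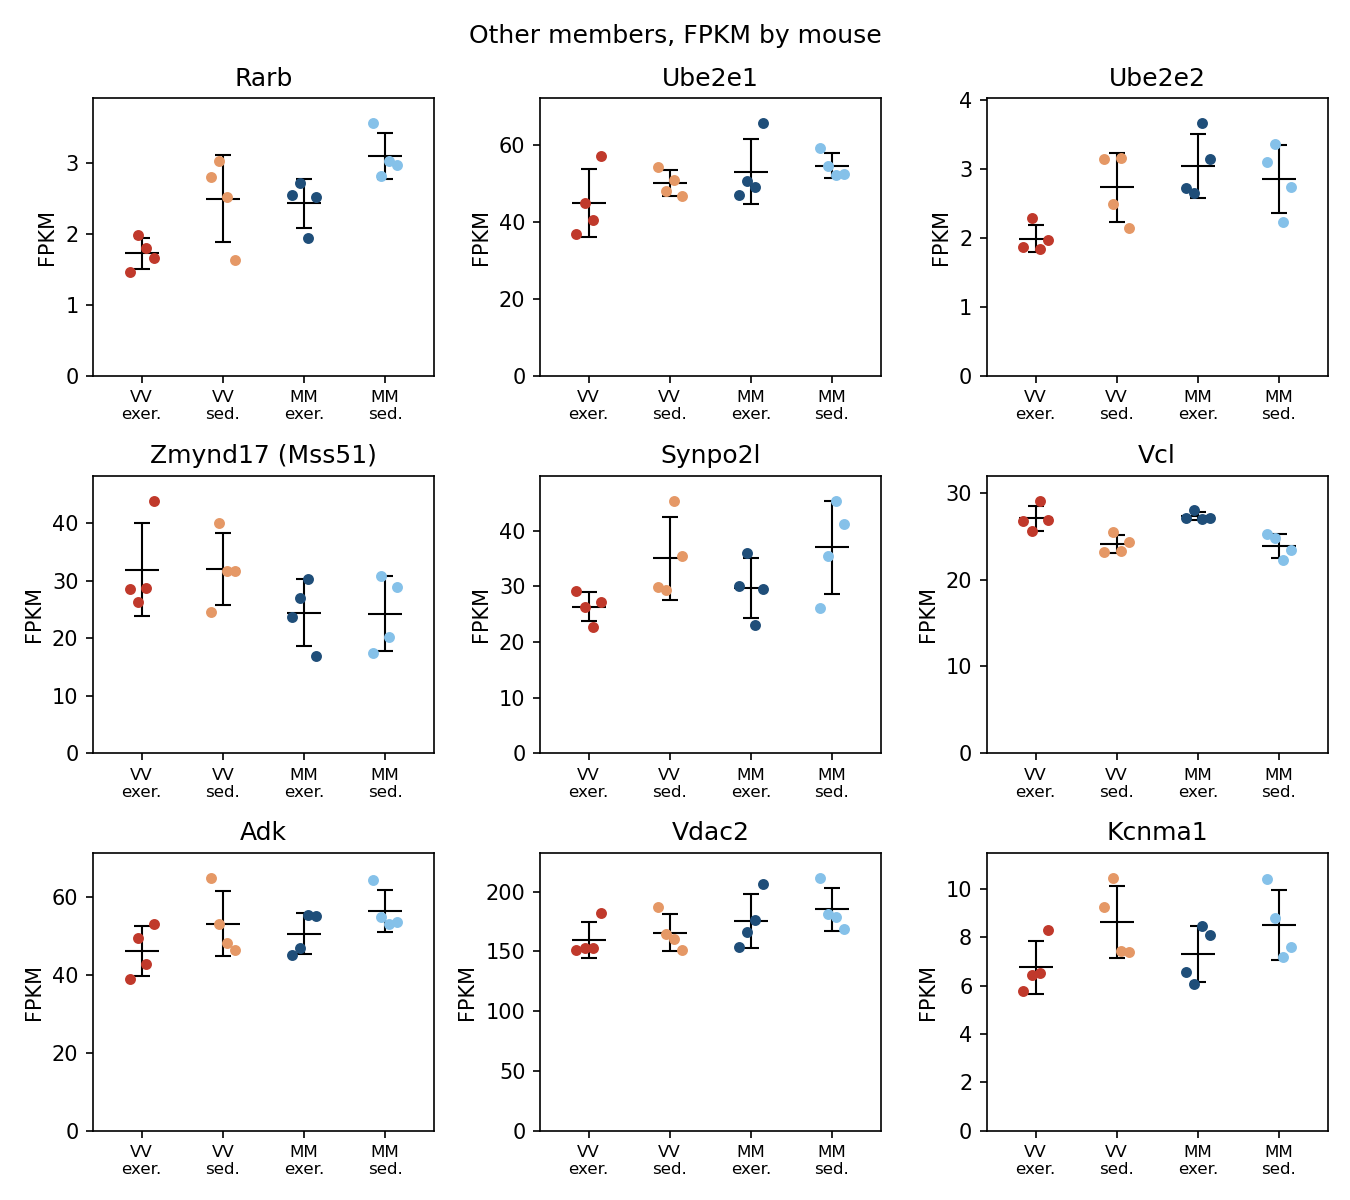
FPKM of the other 9 genes in each mouse, one panel per gene on its own axis starting at 0, with group mean and SD as black lines, in exercised VV, sedentary VV, exercised MM and sedentary MM mice (n = 4 each). In Ube2e2 the exercised VV mice, at 1.84 to 2.28 FPKM, lie below the exercised MM mice, at 2.64 to 3.66 FPKM, and in Vcl exercised mice lie above sedentary mice in both genotypes.

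The neighbourhood as a whole was then read, whatever its genes' values. Of 63 table entries within 5 Mb of Camk2g, 48 were tested, of which 14 were above 0 and 34 below 0 in VV minus MM, with a median log2 difference of -0.094. Over all tested genes 34.6% were above 0 and the median was -0.058. The neighbourhood median was -0.041 with median-ratio scaling and -0.046 with quantile scaling, where that of all genes was -0.0048 and -0.017, and -0.041 without sedentary VV mouse 2296-5. With the 10 genes and Camk2g left out, 37 remained, 13 above and 24 below 0, with a median of -0.071. None of the 37 passed the adjusted threshold of limma, and 3, or 8.11%, had an unadjusted p under 0.05. Of all 48 it was 9, or 18.8%, and of all tested genes 13.1%. Leaving out genes that were chosen for their differences lowers the share of the 37, so nothing is read from it.

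The rest of chromosome 14, 315 tested genes, had a median of -0.083, with 81 above and 234 below 0. Within 2 Mb of Camk2g the median over 33 genes was -0.100, and within 10 Mb over 74 genes it was -0.097. The lowest of the 37 were Ngly1,Top2b, a joined entry of overlapping genes, at -0.21, the ribosomal protein gene Rps24 at -0.19 and Ap3m1 at -0.18. The highest were Zmiz1, a transcriptional coregulator, at 0.20, Dupd1, a phosphatase gene, at 0.19, and Ppif, which encodes cyclophilin D, at 0.15. All of these were smaller in size than the differences of 1700112E06Rik, Rarb, Ube2e2 and Zmynd17, which had been chosen for theirs.

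**Figure D3:**
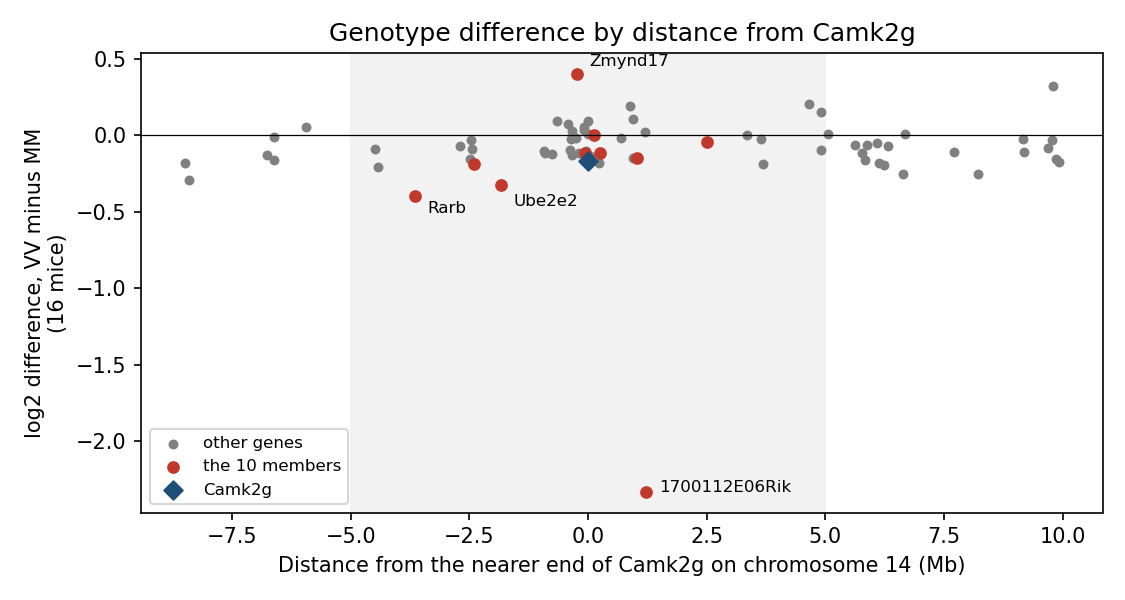
Log2 difference, VV minus MM over 16 mice, of each tested gene within 10 Mb of Camk2g, against its distance from the nearer end of Camk2g in Mb. Grey points are other genes, red points the 10 genes, the diamond Camk2g and the shaded band 5 Mb either side; 1700112E06Rik stands at -2.33 and all other genes lie between -0.40 and 0.40.

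The difference between exercised and sedentary mice was tested with genotype averaged over. Of the numbers before the dash, only 2296, in VV mice, occurs in both states. Running and what these numbers stand for therefore cannot be fully told apart. Of the 10 genes 1 passed, Vcl, beside 3.14% of all tested genes (330 of 10519, 208 higher and 122 lower). With median-ratio scaling 369 genes passed, and the share of them that were higher moved to 78.3%, against 63.0% in the values as deposited.

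Vcl was at 26.8, 25.6, 29.2 and 26.9 FPKM in exercised VV mice, against 23.3, 25.6, 23.4 and 24.4 FPKM in sedentary VV mice. In MM mice it was at 27.2, 28.0, 27.1 and 27.1 FPKM after exercise, against 25.3, 24.8, 22.3 and 23.4 FPKM in sedentary mice. Each of the 8 exercised mice was above each of the 8 sedentary mice, though mouse 2161-7 and sedentary mouse 2074-5 were nearly level. A separation of this kind was found in 0.894% of all tested genes.

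Vcl rose by 0.18 on the log2 scale (SE 0.047, adjusted p = 0.0474 by limma with Benjamini-Hochberg adjustment), 1.13-fold, to 27.2 ± 1.02 FPKM in exercised mice, against 24.1 ± 1.15 FPKM in sedentary mice (SD, n = 8 each). The value stood just past the threshold. It kept its direction in all 25 alternatives but passed in 7 of them, with adjusted p from 0.0132 to 0.108, and leaving out any 1 mouse other than sedentary MM mouse 2032-3 lost the call.

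The Vcl promoter holds a CArG box, the motif of serum response factor, at bases -227 to -218, shown in capitals (chr14:20929148-20929240, GRCm38, plus strand) because serum response factor is a known regulator of adhesion and actin genes.

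Vcl: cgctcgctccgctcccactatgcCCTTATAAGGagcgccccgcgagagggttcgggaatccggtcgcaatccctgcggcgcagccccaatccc

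A CArG box was found in 482 of 32851 promoters, or 1.47%. No binding was measured here.

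Camk2g fell by 0.17 on the log2 scale after exercise (SE 0.045, adjusted p = 0.0455 by limma), with 57.4 ± 3.97 FPKM in exercised and 64.8 ± 5.31 FPKM in sedentary mice (SD, n = 8 each). It passed in 6 of 25 alternatives, with adjusted p from 0.0243 to 0.231, and was lost without any of 14 of the 16 mice, the exceptions being sedentary VV mouse 2074-5 and sedentary MM mouse 2032-3. Of the 37 other neighbourhood genes, Zmiz1 was the only one past the threshold, at 0.64 on the log2 scale (adjusted p = 0.00268).

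Rarb had a log2 exercise difference of -0.41 (95% interval -0.67 to -0.15, adjusted p = 0.0809 by limma), with 2.08 ± 0.462 FPKM in exercised and 2.80 ± 0.556 FPKM in sedentary mice (SD, n = 8 each). It did not pass, and it passed only without sedentary VV mouse 2296-5, at -0.50 (adjusted p = 0.00942). That mouse had the lowest Rarb and the highest 1700112E06Rik of its group. In MM mice every exercised value was below every sedentary value, and 6.74% of all tested genes separated in that comparison.

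Synpo2l was at 29.2, 26.4, 22.8 and 27.2 FPKM in exercised VV mice, against 29.9, 29.4, 45.5 and 35.4 FPKM in sedentary VV mice, a separation of the 2 groups by a small gap, and 4.91% of all tested genes separated in that comparison. In MM mice it was at 30.1, 36.1, 23.1 and 29.5 FPKM after exercise, against 26.1, 35.4, 45.4 and 41.3 FPKM in sedentary mice, which overlapped. Its log2 difference was -0.35 (95% interval -0.61 to -0.09, adjusted p = 0.142 by limma), and it passed only without sedentary MM mouse 2032-3, at -0.43 (adjusted p = 0.0432). Its promoter holds a match to the MEF2 motif, shown in capitals (chr14:20668415-20668502, GRCm38, minus strand, written along the gene) because MEF2 factors act in muscle and are regulated through CaMKII.

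Synpo2l: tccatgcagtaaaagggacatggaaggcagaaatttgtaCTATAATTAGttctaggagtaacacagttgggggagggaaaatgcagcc

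The match lies at bases -109 to -100, and 2.92% of promoters held one. These motifs were among 7 searched after the values were known, on both strands except TATAAA. The others were the E-box CANNTG (66.2% of promoters), its forms CACGTG (6.02%) and CATGTG (12.3%), and TATAAA (7.59%). An E-box was found before the starts of Rarb, Ube2e1, Ube2e2 and Synpo2l, and CATGTG before that of Synpo2l. Adk, Synpo2l and Ube2e2 each have a further promoter entry with another start. The further entry of Ube2e2 held no E-box. That of Synpo2l held a MEF2 match from base -144 but no CATGTG. The 250 bases of Lrmda held none of the 7.

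Kcnma1 had a log2 exercise difference of -0.28 (95% interval -0.51 to -0.05, adjusted p = 0.175 by limma) and Adk one of -0.18 (adjusted p = 0.245). The others had log2 differences of -0.27 for 1700112E06Rik (adjusted p = 0.584), -0.17 for Ube2e2 (0.444), -0.11 for Ube2e1 (0.488) and -0.07 for Vdac2 (0.624). Zmynd17 was at 31.9 FPKM in exercised VV mice and 32.1 FPKM in sedentary VV mice on average, with a 95% interval of its exercise difference from -0.33 to 0.33. The interval for 1700112E06Rik, -0.82 to 0.27, is wide, and neither a fall nor a small rise within it can be told from no change.

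Within a genotype none of the 10 genes passed, beside 0.276% of tested genes in VV and 1.23% in MM mice. Exercise differences within a genotype are in part built from the genotype differences in each state that chose the genes. They are therefore given as a description. In Ube2e2 the log2 exercise difference was -0.43 (SE 0.16) in VV and 0.09 (SE 0.16) in MM mice. The VV minus MM difference of these values, -0.52 (SE 0.23), is built from the genotype values that chose the gene and was not tested. For Vcl it was 0.17 in VV and 0.19 in MM mice, and for Rarb -0.48 in VV and -0.34 in MM mice.

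**Figure D4:**
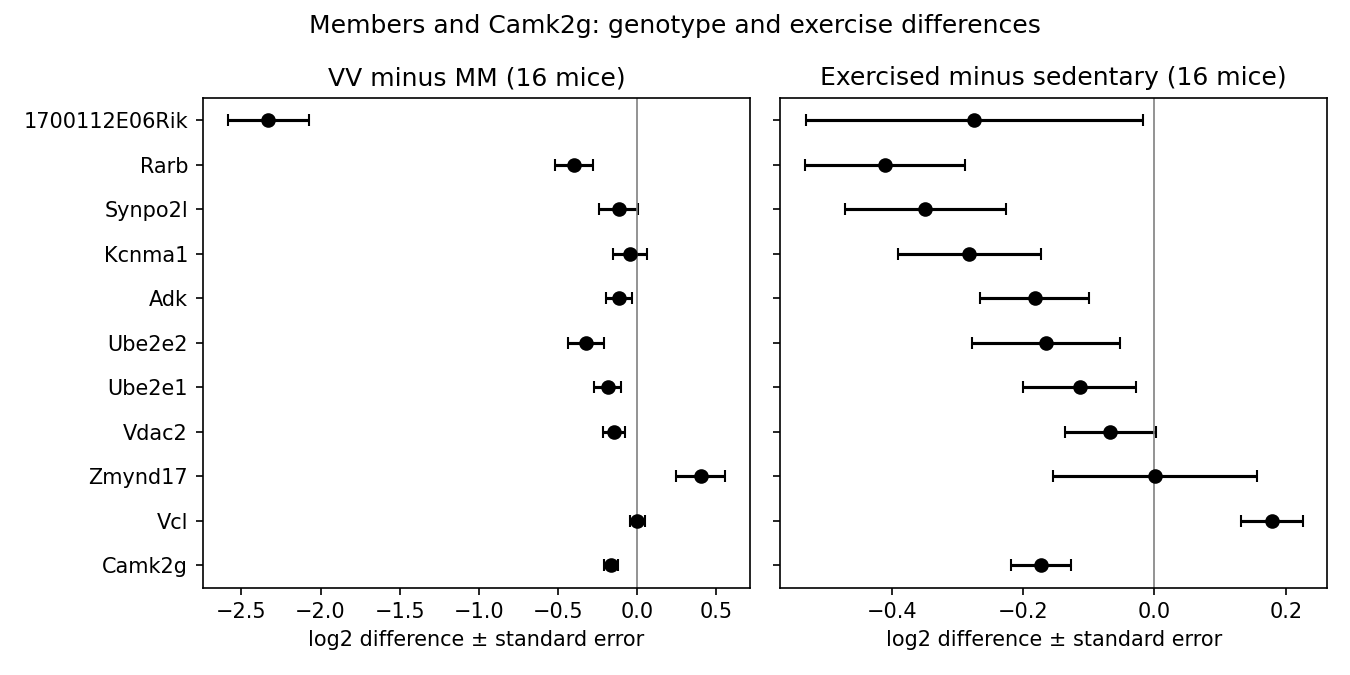
Log2 differences of the 10 genes and Camk2g with standard errors from the model over 16 mice, VV minus MM on the left and exercised minus sedentary on the right. The horizontal axes differ in range: 1700112E06Rik reaches -2.33 on the left, and on the right Vcl stands at 0.18 and Rarb at -0.41.

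Genes related to the 10 by family or complex were listed by function, and of 24, 19 were tested. In VV minus MM, 8 were above and 11 below 0, with a median of -0.046, beside -0.058 over all tested genes, and a range from -0.21 for Ube2e3, the third E2 enzyme of that family, to 0.20 for Rxrb, a partner of retinoic acid receptors. In levels per transcript length, Vdac1 stood highest of its family at 925 FPKM in VV and 972 FPKM in MM mice, then Vdac3 at 343 FPKM in VV and 374 FPKM in MM mice, then Vdac2.

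After exercise 1 of the 19 passed. Lrrc38, an auxiliary subunit of the channel formed by Kcnma1, fell by 0.70 on the log2 scale (adjusted p = 0.000292 by limma), with 6.81 ± 0.775 FPKM in exercised and 11.2 ± 1.53 FPKM in sedentary mice (SD, n = 8 each). Pxn, which encodes paxillin, a partner of vinculin at adhesions, had a log2 difference of 0.31 (adjusted p = 0.132). Kcnmb1, Kcnmb4, Ada and Nt5e were below 1 FPKM on average and not tested.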

How the data were processed

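Quadriceps of 16 mice were profiled by stranded poly(A) RNA sequencing, and groups were taken from the sample labels. The authors deposited FPKM values per gene and mouse. The submitters' processing notes list Cuffdiff 2.2.1, StringTie, TopHat, SAMtools and FastQC with the build mm10; no source read here gives their roles or the gene models. Read depth is unknown, and precision is set by the variation among mice. A shift in a few abundant genes can move all other FPKM values.

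The limma package (3.58.1, R 4.3.3) was applied to log2(FPKM + 0.1) for 10519 of 18873 entries with a mean of at least 1 FPKM. A model of 4 group means was fitted with eBayes, trend and robust settings, and two-sided p-values were Benjamini-Hochberg adjusted over all tested genes at 0.05. The fit was tested on simulated data. Plots used matplotlib 3.10.9 under Python 3.11.15. Gene positions and promoters came from RefSeq, GRCm38.p6, the assembly of mm10, and 18143 entries matched by name. Of the 10 genes and Camk2g, 9 had promoter entries. The genes named are the 10, Camk2g, the listed relatives, the 3 lowest and 3 highest other neighbours and the 3 genes most like 1700112E06Rik. Markers of the cell type lists and genes overlapping any of the 10 are named too. Sgk3 and Sox18 were named after their values were seen. Members and gene lists were chosen with earlier results of these data known. Alternatives were another pseudocount, filter, scaling, variance setting, weights, window, a block on the number before the dash, fits per genotype and leaving out each mouse.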

Additional observations from a re-analysis of the deposited data

Results flagged for a closer look

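In 4 of 44 groups of 4 mice, 1 mouse stood apart from the other 3 by Dixon's 95% criterion, and chance flags about 1 in 20 groups. Zmynd17 was at 44.0 FPKM in exercised VV mouse 2296-3, against 26.3 to 28.8 FPKM in the other 3. Vdac2 was at 182 FPKM in the same mouse, against 151 to 153 FPKM. Adk was at 64.2 FPKM in sedentary MM mouse 2032-3, against 52.9 to 54.8 FPKM. Vcl was at 28.0 FPKM in exercised MM mouse 2161-9, against 27.1 to 27.2 FPKM.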

How the results depend on the processing

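Of 816 genotype values of the 10 genes and Camk2g under an alternative, 811 moved by less than the spread between mice. Of 837 exercise values 775 kept direction and side of the threshold, 37 lost and 2 gained a call, and 23 changed sign. The genes called for exercise numbered 573 with sample quality weights and 153 with the number before the dash as a random block, against 330, and in MM mice 235 and 72, against 129. In VV mice they numbered 55 with median-ratio scaling, 48 with quantile scaling and 5 when the model held VV mice only, against 29. Leaving out 1 mouse gave 16 to 43 genes in VV mice, 69 to 139 in MM mice and 1 to 2 for genotype. With a mean of at least 5 FPKM, which removes 1700112E06Rik, 0 genes were called for genotype by limma, and 980 had an unadjusted p under 0.05.

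Sign changes were in values near 0. The Zmynd17 exercise difference was -0.0830 with sample quality weights and -0.0810 to 0.0846 leaving out 1 mouse, and in VV mice 0.0675 with median-ratio scaling, 0.0389 with quantile scaling, 0.0225 with the random block and -0.179 to 0.0979 leaving out 1 mouse. In MM mice it was -0.129 to 0.185 leaving out 1 mouse. Vdac2 in VV mice was at 0.0295 with median-ratio scaling and -0.119 to 0.00547 leaving out 1 mouse. Leaving out 1 mouse also gave -0.288 to 0.0920 for 1700112E06Rik in VV mice, -0.158 to 0.00258 for Ube2e1 in MM mice and -0.0164 to 0.176 for Ube2e2 in MM mice. The causes were not tested. Each mouse was sampled once, so no pairing within a mouse was possible. Mice that share the number before the dash were not paired, and that number entered only the fit with a random block. Over alternatives 1700112E06Rik stayed between -2.63 and -1.23 in VV minus MM. Only FPKM values were used, so low genes such as 1700112E06Rik, Rarb and Ube2e2 have an unknown counting error.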
